A study of Mus musculus with 8 samples.

Results

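The expression of 7 MHC class II genes, Cd74, H2-Aa, H2-Ab1, H2-Eb1, H2-DMa, H2-DMb1 and Ciita, was followed through the bone marrow stem and progenitor cells of ageing mice. The genes were chosen by name, 7 of the 32285 genes counted, and their raw UMIs (unique molecular identifiers, each standing for 1 captured RNA molecule) were read in all 8 libraries, in dendritic cells, stem cells and the other lineages. All 7 gene identifiers matched the GENCODE vM21 annotation of GRCm38 (mm10).

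Each library came from 1 wild-type mouse and held its bone marrow cells sorted as lineage-negative and c-Kit-positive, captured with droplet-based 3′ single-cell RNA-seq. The 4 age groups were young, at 14 weeks, middle-aged, at 50 weeks, old (78 weeks for the male, 79 weeks for the female) and very old (95 weeks), with 1 male and 1 female in each. The sample labels give no strain, and the study's methods name C57BL/6j but describe female mice only, so that the strain of these mice is not certain. These cells were neither cultured nor transplanted. The libraries held 6459 to 8866 barcodes and 83062003 to 150135029 UMIs, with 8505 to 14951 UMIs in the median cell, and no pair of libraries shared more than 0.382% of the barcodes of the smaller one. The very old mice carry library names of a later series than the other 6 mice, so that age of 95 weeks and library series cannot be told apart, and the HSC-like result is also given without them.

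MHC class II molecules carry peptides from engulfed or internally degraded proteins to the cell surface, where CD4 T cells read them. An alpha and a beta chain (H2-Aa with H2-Ab1, and H2-Eb1 with its own alpha partner) assemble in the endoplasmic reticulum around the invariant chain encoded by Cd74, which blocks the peptide groove until proteases remove it in endosomes. The H2-DM dimer of H2-DMa and H2-DMb1 then exchanges the remaining fragment for a peptide. Dendritic cells and B cells make these proteins constantly, and macrophages to a varying degree, under the co-activator encoded by Ciita. C57BL/6 mice carry a defective gene for the alpha partner of H2-Eb1 and show no such dimer on the surface, although the beta chain is transcribed.

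The genes for the chains and the exchange subunits lie together on chromosome 17. H2-Aa was annotated at chr17:34282744-34287823 on the minus strand, H2-Ab1 at chr17:34257689-34269419, H2-Eb1 at chr17:34305867-34316674, H2-DMa at chr17:34119541-34139101 and H2-DMb1 at chr17:34153072-34160230, the last 4 on the plus strand. Ciita lies at chr16:10480059-10528418 on the plus strand. Ciita does not bind DNA and is brought to class II promoters by factors on short shared boxes, among them the Y box (read here as GATTGG), bound by NF-Y, and the X box, bound by RFX and CREB factors (read as ACNGATG and TGACGTCA). The RefSeq promoter table (GRCm38.p6) held an entry for 4 of the 7 genes. The stretches from 120 to 31 bases before the start of H2-Aa (chr17:34287854-34287943, minus strand) and H2-Eb1 (chr17:34305747-34305836, plus strand) are shown because both genes are among the members that differed with age below. Capitals mark the boxes found.
H2-Aa: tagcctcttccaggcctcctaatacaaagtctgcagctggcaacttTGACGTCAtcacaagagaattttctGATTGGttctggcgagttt
H2-Eb1: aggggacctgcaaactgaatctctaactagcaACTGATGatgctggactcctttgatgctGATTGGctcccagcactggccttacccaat
In H2-Aa, TGACGTCA stood 17 bases before GATTGG. In H2-Eb1, ACTGATG stood 21 bases before GATTGG, and the H2-DMb1 stretch of the same length held the same pair 22 bases apart. The latter is not shown because GENCODE places it within the gene. The 2 starts listed for H2-DMa held none of these letters. Searched on both strands, this 90-base stretch held GATTGG in 7.90% of 32851 promoters, ACNGATG in 3.06%, TGACGTCA in 0.828% and both GATTGG and ACNGATG in 0.222%. These are matches of letters and no binding was measured.

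To place the genes in lineages, cells were clustered without using the 7 genes or other class II chains, and clusters were named from marker genes. Of 59136 cells with 200 or more genes, 520 (0.879%) were dendritic-like and 4636 (7.84%) were HSC-like (haematopoietic stem cells). The other classes used below were multipotent progenitor (MPP)-like, megakaryocyte-like, erythroid-like, basophil and mast cell-like, granulocyte-monocyte progenitor-like, monocyte-like and macrophage-like cells. A further 10529 cells (17.8%) lay in unnamed clusters, and neutrophil-like cells numbered only 50. The dendritic-like cells carried the markers of conventional type 1 dendritic cells: Clec9a, a receptor for dead cells, had 637 UMIs in them and Xcr1, a chemokine receptor, 417, against 2 and 4 in the 4636 HSC-like cells. Xcr1 was found in 18.8 to 50.9% of dendritic-like cells over mice, and the type 2 marker Cd209a had 89 UMIs in the 520 cells and 0 in HSC-like cells. Cd209a also had 68 UMIs in the 319 macrophage-like cells, and its mean over mice was higher there (57.0 ± 99.8 CPM, SD, n = 8) than in dendritic-like cells (15.1 ± 8.09). That macrophage-like mean rests largely on the old female, at 300 CPM from 28 UMIs in 16 cells. The middle-aged female and the very old male had 0 CPM. Siglech, which marks plasmacytoid dendritic cells, had 11 UMIs in the 520 cells, so that lineage was nearly absent among them. Dendritic-like cells held 0 to 6 Siglech UMIs per mouse, as did an MPP-like cluster led by Dntt and Flt3. Kit, the gene of the sorted surface receptor, stood at 46.1 to 101 CPM (counts-per-million scale: the UMIs of the gene over all UMIs of the class in 1 mouse) in dendritic-like and at 122 to 205 in HSC-like cells. They are called dendritic-like here, and whether they were progenitors was not measured.

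Class II expression was concentrated in dendritic-like cells. These 0.879% of cells held 70.3% of all 104131 Cd74 UMIs, 67.8% of H2-Aa, 62.2% of H2-Eb1, 61.6% of Ciita and 46.6% of H2-Ab1 UMIs. The exchange subunits were spread differently, with 17.2% of H2-DMb1 and 4.34% of H2-DMa UMIs in dendritic-like cells. Macrophage-like cells, 0.539% of cells, held 10.01% of the Cd74 UMIs and HSC-like cells 8.57%. Classes were clusters of the same cells, so differences between them are given as values over the 8 mice, with no test.

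Cd74, the invariant chain gene on chromosome 18, was highest in dendritic-like cells, at 14242 and 11489 CPM in the young male and female, 11064 and 13307 in the middle-aged, 15657 and 11860.3 in the old and 15351 and 10766 in the very old mice. Macrophage-like cells followed with a median of 5528 CPM and a wide range of 2037 to 12552, and dendritic-like cells were the higher in 7 of 8 mice. Macrophage-like cells were uneven in it: 36.7% had no Cd74 UMI, and among those thinned to 4000 UMIs the median cell had 1 and the highest 195. HSC-like cells came next. Their Cd74 level was 197 and 108 CPM in the young male and female, 276 and 175 in the middle-aged, 251 and 227 in the old and 275 and 246 in the very old mice. This lay 60.8-fold below dendritic-like cells (geometric mean, range 40.1 to 106-fold over mice), yet 5.16-fold above MPP-like cells (3.73 to 8.09-fold). These values depend on how stem cells were defined: with marker gates in place of clusters the mean Cd74 level over mice was 111 CPM, against 219 CPM in the HSC-like cluster. The range of HSC-like CPM over mice overlapped neither that of macrophage-like nor that of MPP-like cells. MPP-like cells had a median of 44.8 CPM. Below them, megakaryocyte-like (6.76), basophil and mast cell-like (6.16), erythroid-like (5.71), granulocyte-monocyte progenitor-like (3.69) and monocyte-like cells (2.78) had overlapping ranges and no firm order.

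MPP-like cells were not uniform in Cd74. Their cluster led by Dntt and Flt3, genes of lymphoid-primed progenitors, ranged from 62.6 to 250.2 CPM, and HSC-like cells were the higher in 6 of 8 mice, by 1.35-fold on the geometric mean. Single cells weigh in these sums. Thinned to 4000 UMIs, the 90th percentile was 2 Cd74 UMIs and the highest cell had 61, against 3 and 20 in HSC-like cells. Cd79a, from the lymphoid progenitor list, had 0 to 34 UMIs per mouse in the Dntt and Flt3 cluster. The part of such cells in its Cd74 level was not tested. Ccr9, from the plasmacytoid dendritic marker list, was also among the leading genes of that cluster. Against the largest MPP-like cluster, which Cd34 helped to define, HSC-like cells were 14.0-fold higher (9.35 to 25.1-fold). The unnamed clusters together held 2.93% of Cd74 UMIs in 17.8% of cells.

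By their medians, the chains H2-Aa and H2-Eb1 had the same order of classes as Cd74 at the top. Dendritic-like cells were above macrophage-like cells in 7 of 8 mice for H2-Aa and in 5 of 8 for H2-Eb1, with overlapping ranges. H2-Aa had medians of 4947 CPM in dendritic-like, 2283 in macrophage-like, 108 in HSC-like and 19.6 in MPP-like cells, and H2-Eb1 had 3197, 2330, 83.6 and 15.7 CPM. Dendritic-like cells exceeded HSC-like cells 51.4-fold in H2-Aa and 46.3-fold in H2-Eb1. HSC-like cells exceeded MPP-like cells 5.45-fold in H2-Aa and 5.14-fold in H2-Eb1, in 8 of 8 mice each and without overlap.

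H2-Ab1, the beta chain that pairs with H2-Aa, fell less steeply below HSC-like cells. Its median was 5776 CPM in dendritic-like, 2289 in macrophage-like, 111 in HSC-like and 66.4 in MPP-like cells, then 49.1 in basophil and mast cell-like, 40.0 in megakaryocyte-like, 30.1 in granulocyte-monocyte progenitor-like, 28.6 in erythroid-like and 24.3 in monocyte-like cells. HSC-like cells were only 1.67-fold above MPP-like cells (1.38 to 2.02-fold, 8 of 8 mice), and the 2 ranges overlapped. Per UMI of Cd74 there were 0.459 UMIs of H2-Ab1 in dendritic-like and 0.483 in HSC-like cells, but 1.46 in MPP-like and 7.18 in granulocyte-monocyte progenitor-like cells. The same ratio for H2-Aa was between 0.384 and 0.459 in macrophage-like, dendritic-like, erythroid-like, MPP-like and HSC-like cells. It was higher in the other named lineages, at 0.533 in basophil and mast cell-like, 0.609 in granulocyte-monocyte progenitor-like, 0.688 in monocyte-like and 1.03 in megakaryocyte-like cells.

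The H2-DM subunits did not follow the chains. H2-DMa had a median of 658 CPM in dendritic-like and 309 in macrophage-like cells, and was higher in MPP-like (175) than in HSC-like cells (158) in 7 of 8 mice with overlapping ranges. It stayed at 126 in monocyte-like and 109 in megakaryocyte-like cells, and was lowest in erythroid-like cells at 36.3. Dendritic-like cells were 4.07-fold above HSC-like cells in H2-DMa (3.23 to 4.89-fold) and 16.1-fold in H2-DMb1 (11.1 to 20.6-fold). H2-DMb1 was the member whose range in dendritic-like cells lay clear of that in macrophage-like cells, at 843 against 173 CPM in the median. HSC-like (50.6), monocyte-like (44.7) and MPP-like cells (41.0) overlapped in it.

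Ciita, the co-activator, was rare outside antigen-presenting cells. Its median was 234 CPM in dendritic-like and 144 in macrophage-like cells, 4.23 in HSC-like, 1.58 in MPP-like and 1.06 in megakaryocyte-like cells. Its range in macrophage-like cells was 21.0 to 386 CPM. The HSC-like level rests on 169 UMIs in 4636 cells, so its differences between mice are poorly resolved.

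**Figure D1:**
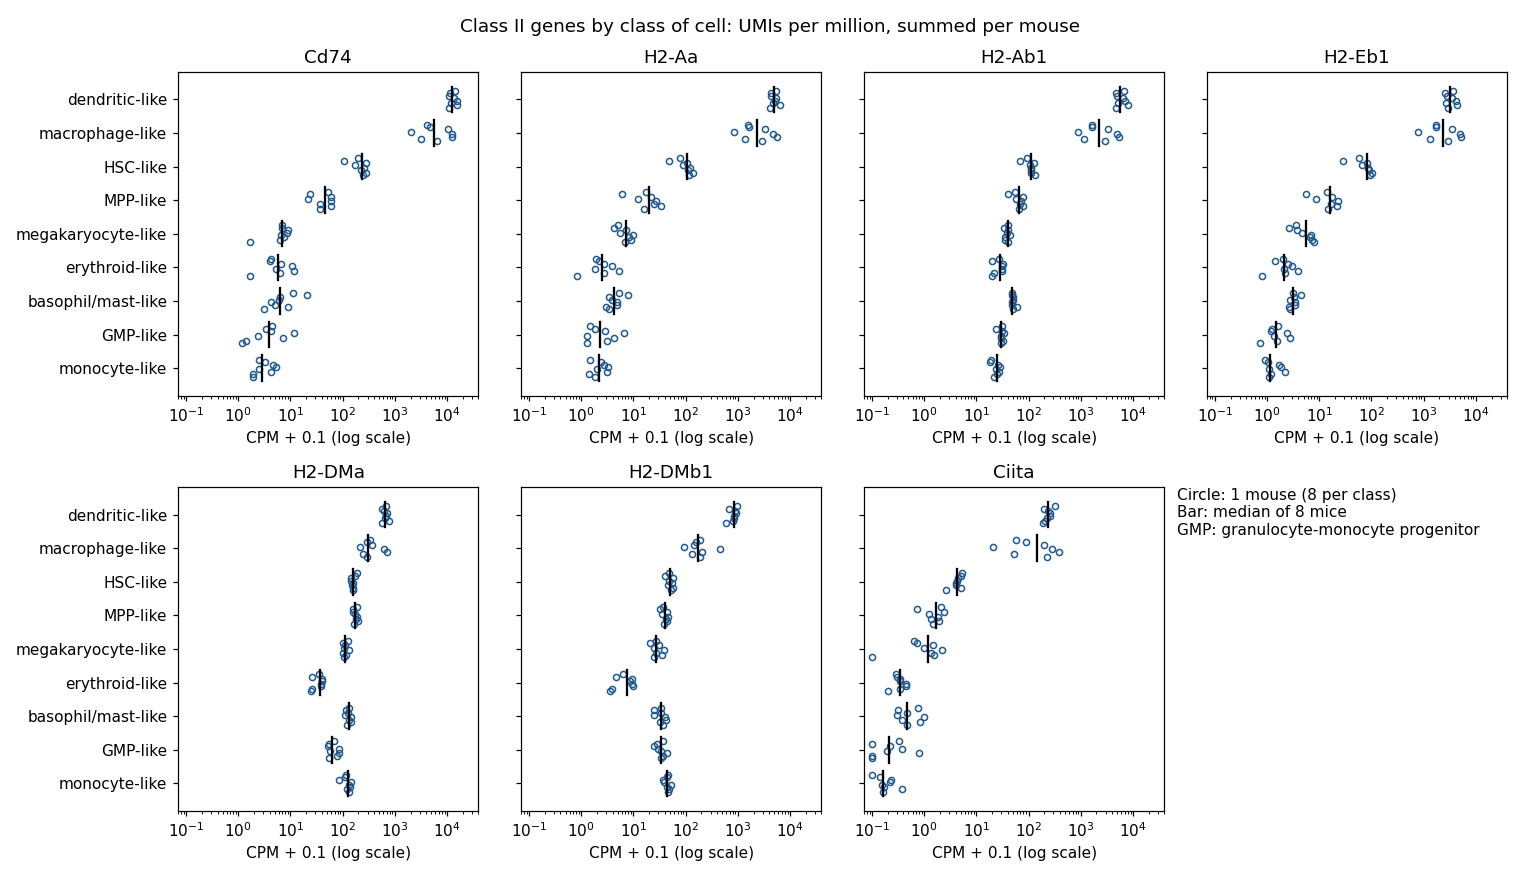
Level of each class II gene by class of cell. The x axis is CPM plus 0.1 on a log scale, each circle is 1 mouse and each bar the median of 8 mice. Cd74, H2-Aa, H2-Eb1 and Ciita fall steeply from dendritic-like to monocyte-like cells, whereas H2-Ab1 falls less steeply below HSC-like cells, and H2-DMa and H2-DMb1 lie close together in HSC-like, MPP-like and monocyte-like cells and lower in erythroid-like cells.

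Counted cell by cell in cells thinned to 4000 UMIs, nearly all dendritic-like cells were positive. Shallower cells were left out, which kept 424 of 520 dendritic-like, 172 of 319 macrophage-like, 4284 of 4636 HSC-like, 8109 of 11241 MPP-like and 11135 of 14508 erythroid-like cells. Over mice, a Cd74 UMI was found in 97.1 to 100% of dendritic-like cells, a median of 37.3% of HSC-like cells (22.8 to 48.8%) and 8.32% of MPP-like cells. Erythroid-like cells, which should lack the gene, had 1.70% (0.689 to 2.90%), which was taken as the background. The clusters in this class ranged from 2.87 to 18.5% in unthinned cells. Whether the background came from free RNA, doublets or mixed cells was not tested. Before thinning, the medians were 45.9% in HSC-like and 6.52% in erythroid-like cells, whose median depths ranged from 6949 to 10458 and from 6742.5 to 34825.5 UMIs over mice. All of Cd74, H2-Aa, H2-Ab1 and H2-Eb1 were found together in 96.2% of dendritic-like, 36.6% of macrophage-like, 6.51% of HSC-like, 0.826% of MPP-like and 0.0359% of erythroid-like cells. Detection of the genes was linked within classes. H2-Aa was found in 49.6% of HSC-like cells with a Cd74 UMI and in 13.02% of those without, in 28.7% and 4.26% of MPP-like cells and in 5.62% and 0.758% of erythroid-like cells. Macrophage-like cells were mixed, with 26.2% holding none of the 4 genes. Ciita was found in 57.7% of Cd74-positive dendritic-like cells.

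**Figure D2:**
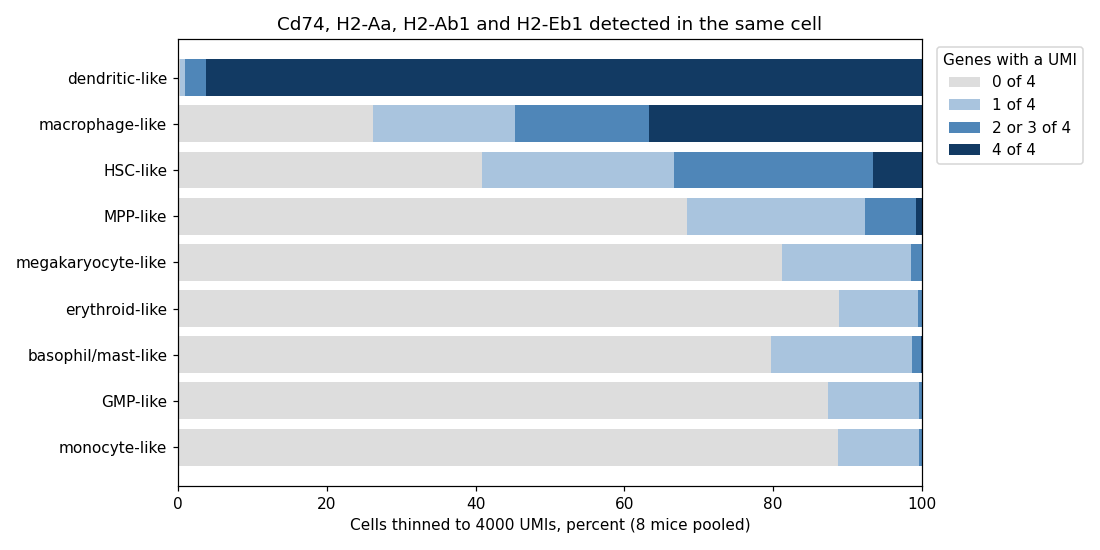
Share of cells in each class (x axis, percent, 8 mice pooled, cells thinned to 4000 UMIs) with a UMI of 0, 1, 2 or 3, or all 4 of Cd74, H2-Aa, H2-Ab1 and H2-Eb1. Dendritic-like cells are filled almost wholly by the darkest section (96.2%), and HSC-like cells hold 6.51% with all 4 and 40.9% with none.

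Within dendritic-like cells the class II genes varied with proliferation. The 169 cells with no UMI of the cycling genes Mki67 or Top2a had higher levels than the 351 cells with one, in 8 of 8 mice: 1.80-fold for Cd74 (1.33 to 2.23-fold), 2.12-fold for H2-Eb1, 1.69-fold for H2-Ab1, 1.48-fold for H2-Aa, 1.503-fold for H2-DMa and 1.76-fold for Ciita. H2-DMb1 differed by 1.06-fold, in 5 of 8 mice. The 313 cells with Xcr1 or Clec9a and no type 2 marker (Cd209a, Clec10a or Mgl2) had 1.75-fold more Cd74 than the 152 cells with neither kind, again in 8 of 8 mice. These subsets were set by single UMIs, and their depths were not matched.

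To ask whether these levels moved with age, UMIs were summed per mouse and class and the 4 old and very old mice were compared with the 2 young mice by edgeR's quasi-likelihood test, with a term for sex and p-values adjusted by Benjamini-Hochberg over all genes of the class (adjusted p under 0.05). Every age contrast shares the same 2 young mice.

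In HSC-like cells 5 of the 7 genes rose. Over all 11680 genes tested, 9.72% were called and 6.70% were higher, and the median log2 fold change was -0.01 for all genes and 0.63 for the 7. H2-Eb1 was 57.8 and 28.8 CPM in the young male and female, 80.7 and 65.9 in the middle-aged, 86.6 and 88.5 in the old and 102 and 92.1 in the very old mice. Each of the 4 older mice exceeded the 2 young ones, and the log2 fold change was 1.25 ± 0.18 (SE, edgeR adjusted p = 0.00144). H2-Aa was 78.8 and 47.3 CPM in the young, 104 and 87.4 in the middle-aged, 119.8 and 113 in the old and 137 and 118 in the very old mice. All 6 older and middle-aged mice lay above the young ones (log2 fold change of older against young 1.09 ± 0.13, edgeR adjusted p = 0.000533).

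Cd74, with the values given above, was 227 to 275 CPM in the 4 older mice against 108 and 197 in the young (0.88 ± 0.15, edgeR adjusted p = 0.00419). The middle-aged female, at 175, fell below the young male. The male had the higher Cd74 level at each of the 4 ages. H2-Ab1 was 94.2 and 70.1 CPM in the young, 129 and 105 in the middle-aged, 113 and 112 in the old and 110.01 and 130.2 in the very old mice (0.63 ± 0.14, edgeR adjusted p = 0.0164). In the middle-aged mice alone it did not pass (0.59 ± 0.16, edgeR adjusted p = 0.109).

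Of the exchange subunits, H2-DMb1 was 48.0 and 39.8 CPM in the young and 55.6, 45.5, 58.4 and 52.2 in the 4 older mice, so the groups overlapped, with a log2 fold change of 0.39 ± 0.11 (edgeR adjusted p = 0.0455). H2-DMa was 188 and 172 CPM in the young and 153 to 160.2 in the older mice (-0.07 ± 0.09, edgeR adjusted p = 0.657). Ciita was 5.33 and 5.04 CPM in the young and 2.55 to 5.02 in the older mice (-0.29 ± 0.31, edgeR adjusted p = 0.618). In both genes the 4 older mice lay below both young ones in CPM, but neither gene passed the test.

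**Figure D3:**
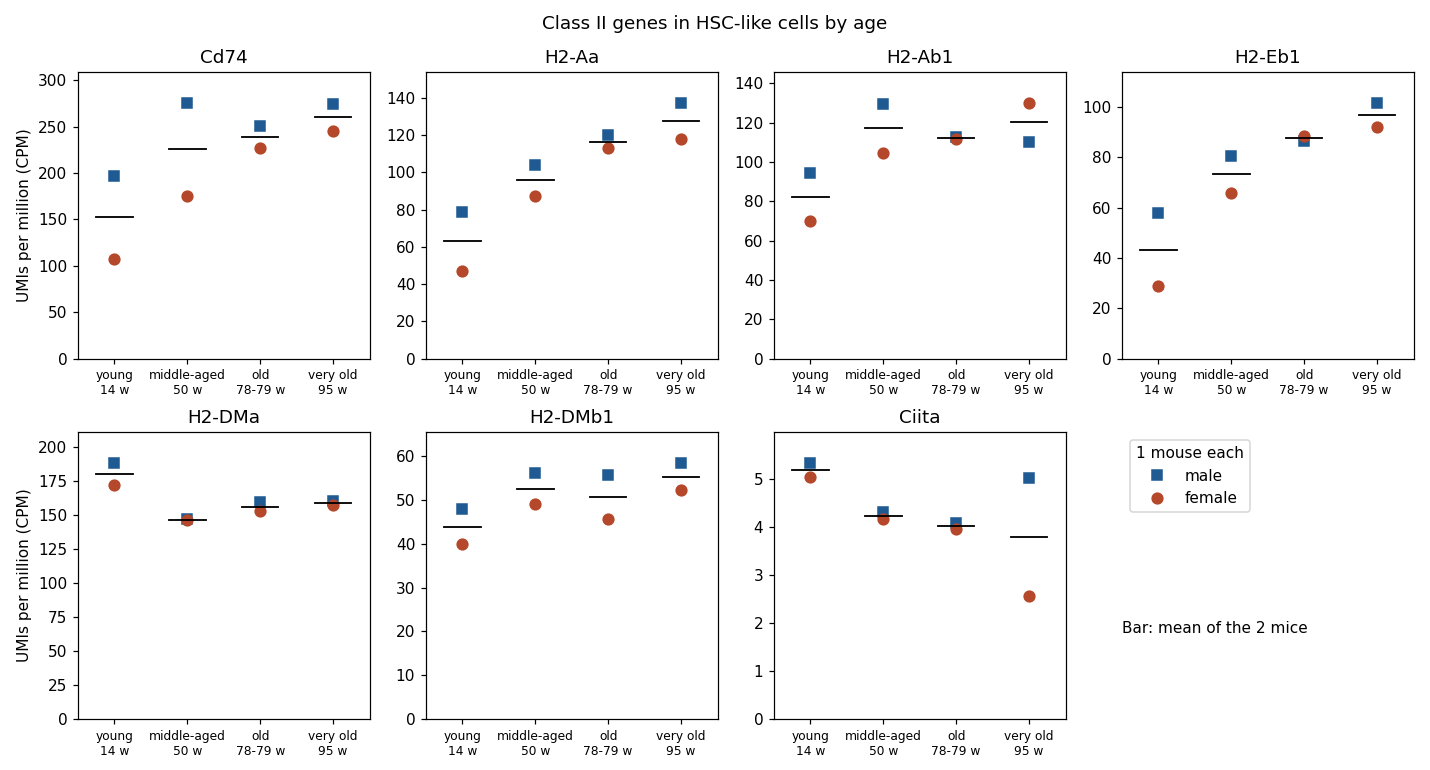
Class II genes in HSC-like cells at the 4 ages. The y axis is CPM on a linear scale from 0, squares are males and circles females (1 mouse each), and bars are the mean of the 2 mice. The 4 old and very old mice lie above both young mice in Cd74, H2-Aa, H2-Ab1 and H2-Eb1. They lie below both in H2-DMa and Ciita, and the groups overlap in H2-DMb1.

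At each age in HSC-like cells against the young, the middle-aged mice had 1 of the 7 genes past the threshold, H2-Aa at 0.69 ± 0.15 (edgeR adjusted p = 0.0489), where 1.42% of all genes were called. The old mice had 3, Cd74 (0.78), H2-Aa (0.99) and H2-Eb1 (1.14), with 7.46% of all genes called. The very old mice had the same 5 as the pooled comparison, with 6.26% of all genes called, among them H2-Eb1 at 1.36 ± 0.20 and Cd74 at 0.98 ± 0.17. Within the earlier library series, without the very old mice, Cd74 (0.77), H2-Aa (0.98) and H2-Eb1 (1.13) were called.

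The HSC-like class itself had other values in the older mice, which stand beside the rise. It held 5.40% and 5.19% of the cells of the young male and female and 6.92 to 12.8% in the 4 older mice (exact permutation test, two-sided, p = 0.133). The share of HSC-like cells with a UMI of Vwf, a gene of platelet-biased stem cells, was 3.66% and 3.99% in the young and 14.7 to 29.3% in the older mice. The share with Mki67 or Top2a was 31.7% and 36.1% in the young and 12.3 to 22.5% in the older mice. Both shares are of unthinned cells, whose median depth was 9287.5 and 8769 UMIs in the young and 6949 to 8087.5 in the older mice. In the 3751 cells without a Vwf UMI, Cd74 was 108 to 192 CPM in the young and 251 to 295 in the older mice, H2-Aa 47.6 to 78.3 against 122.7 to 154, and H2-Eb1 28.4 to 56.3 against 93.8 to 119.8, with no overlap. In the same cells H2-DMa was lower in the older mice, at 177 to 189 CPM in the young against 161 to 174. Ciita was lower too, at 5.28 to 5.51 CPM in the young against 2.73 to 4.60, again with no overlap. All HSC-like cells together held only 169 Ciita UMIs. How many of all genes separate the age groups in these cells was not counted. In the 885 cells with a Vwf UMI the age groups overlapped in Cd74, H2-Aa, H2-Eb1 and H2-DMa, but the young mice held few such cells. Ciita went the other way in these 885 cells, at 0 CPM in the young and 1.56 to 6.10 in the older mice. Cells without Vwf exceeded those with it in H2-Aa by 1.49-fold, in 7 of 8 mice, and in Cd74 by 1.25-fold, in 6 of 8. In the 1098 cells with a UMI of Mki67 or Top2a, Cd74 was 75.3 to 111 CPM in the young and 112 to 282 in the older mice. In the 3538 cells without one it was 132 to 253 CPM in the young and 254 to 273 in the older mice, so that the young male lay just below the older range in both. With such a UMI, H2-Aa was 34.6 to 50.0 CPM in the young and 72.1 to 115 in the older mice. Without one it was 56.6 to 97.4 and 122 to 142. H2-Eb1 was 22.7 to 47.2 and 57.5 to 91.2 with one, and 33.3 to 64.6 and 88.6 to 104 without. Cells without one exceeded those with one by 1.47-fold in H2-Aa and 1.33-fold in H2-Eb1, each in 8 of 8 mice. In Cd74 the excess was 1.44-fold, in 6 of 8. In H2-DMa and Ciita the age groups overlapped in cells with a UMI of Mki67 or Top2a. In cells without one the older mice lay below the young in both genes.

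Markers of other cells were read in the same HSC-like sums. C1qa, a macrophage complement gene, was 7.85 and 10.8 CPM in the young and 0.904 to 5.53 in the older mice, and the macrophage list of 11 genes summed to 52.6 to 54.97 CPM in the young and 12.96 to 31.3 in the older mice, with 4 of its 7 tested genes lower and none higher. Pooled over mice, C1qa had 16.7 UMIs per 1000 of Cd74 in HSC-like cells, against 174 in macrophage-like and 94.7 in erythroid-like ones. Cd74 was 197 and 108 CPM in the young and 227 to 275 in the older mice. Relative to Cd74, C1qa was thus higher in both young mice than in any of the older ones. Of the stem cell markers, 15 of 19 rose (3878 to 4199 CPM summed in the young, 5153 to 6616 in the older mice), and of 12 MPP markers 2 rose and 6 fell. Of 12 tested megakaryocyte markers 5 rose and none fell (584 to 614 CPM summed in the young, 662 to 912 in the older mice). Conventional dendritic markers, a list that shares Flt3 with the MPP list, summed to 542 to 626 CPM in the young and 420 to 503 in the older mice, with 1 higher and 2 lower of 8 tested. Naaa, on that list and a leading gene of the dendritic-like cluster, was 3.37 and 4.56 CPM in the young and 2.85 to 4.52 in the older mice. Pooled over mice, it had 17.6 UMIs per 1000 of Cd74 in HSC-like, 50.6 in dendritic-like and 247 in erythroid-like cells. Of 5 tested mature B cell and plasma cell markers 2 fell and none rose. The erythroid list summed to 1393 to 1457 CPM in the young and 1664 to 2228 in the older mice (2 of 19 tested genes higher, 1 lower), and the basophil and mast cell list to 968 to 1085 and 1130 to 1272 (2 of 5 higher). The lymphoid progenitor list summed to 132 to 142 CPM in the young and 67.5 to 92.2 in the older mice (2 of 5 lower). The part of these shifts in the class II result was not tested. When HSC-like cells holding a UMI of selected macrophage or dendritic markers were left out, H2-Eb1 (1.18), H2-Aa (1.02), Cd74 (0.82) and H2-Ab1 (0.57) were still called, and H2-DMb1 was not. The selection was narrower than the full lists above, since most cells remained. The removal left 320 of 382 and 371 of 451 cells in the young male and female. In the old and very old mice it left 802 of 854, 567 of 604, 648 of 720 and 575 of 600. Whole cells were left out, so free RNA in the remaining cells was not removed.

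The count of 5 depended on the samples and on the clustering. Without the young female the log2 fold change of Cd74 was 0.63, but that fit holds 1 young mouse and takes its spread from the other ages. Without the Harmony correction the count was 2, with Cd74 at 0.21 (edgeR adjusted p = 0.484). H2-Aa and H2-Eb1 passed in each of the 21 alternatives, with edgeR or DESeq2 adjusted p of at most 0.0319 and 0.0314. The size of their rise varied over these alternatives, from 0.43 to 1.37 on the log2 scale for H2-Aa and from 0.62 to 1.71 for H2-Eb1, both lowest without Harmony and highest without the young male.

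In dendritic-like cells no class II gene was called. None of 7227 genes passed (0%), 223 had an unadjusted p under 0.05 but no class II gene did, and DESeq2 also called 0 of the 7. The sums held 32 to 101 dendritic-like cells per mouse, against 382 to 854 HSC-like cells. In simulated counts the test recovered 44.3% of 2-fold changes in dendritic-like and 74.3% in HSC-like cells, so changes of this size can be missed. Cd74 differed by 0.13 ± 0.16 on the log2 scale, H2-Aa by 0.13 ± 0.16, H2-Ab1 by 0.19 ± 0.18, H2-Eb1 by 0.24 ± 0.18, H2-DMa by 0.20 ± 0.17, H2-DMb1 by -0.02 ± 0.17 and Ciita by -0.12 ± 0.19 (edgeR adjusted p = 0.999 each). H2-Eb1 was 3729.9 and 2584 CPM in the young, 2755 and 3427 in the middle-aged, 4188 and 2718 in the old and 4339 and 2967 in the very old mice. H2-Aa was 5486 and 4407 CPM in the young, 4273 and 5315 in the middle-aged, 5253 and 4641 in the old and 6521 and 4167 in the very old mice. H2-Ab1 was 6693 and 4799, 4914 and 6390.5, 7160.1 and 5162, and 8049 and 4694 CPM at the 4 ages in the same order. In these 3 chains the spread between the sexes within an age was wider than the difference between the mean of the young and that of the older mice.

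The other members overlapped across ages too. H2-DMa ranged from 556 to 676 CPM in the young and from 571 to 784 in the older mice, H2-DMb1 from 669 to 987 against 582 to 857, and Ciita from 197 to 323 against 189 to 258. Against the young, 0.0692% of genes were called in the middle-aged, 0.0415% in the old and 0.0138% in the very old dendritic-like cells, with no class II gene among them. Dendritic-like cells made up 0.914% of cells in the young and 0.694% in the older mice (exact two-sided permutation p = 0.467, where 2 mice against 4 cannot go below 0.0667).

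**Figure D4:**
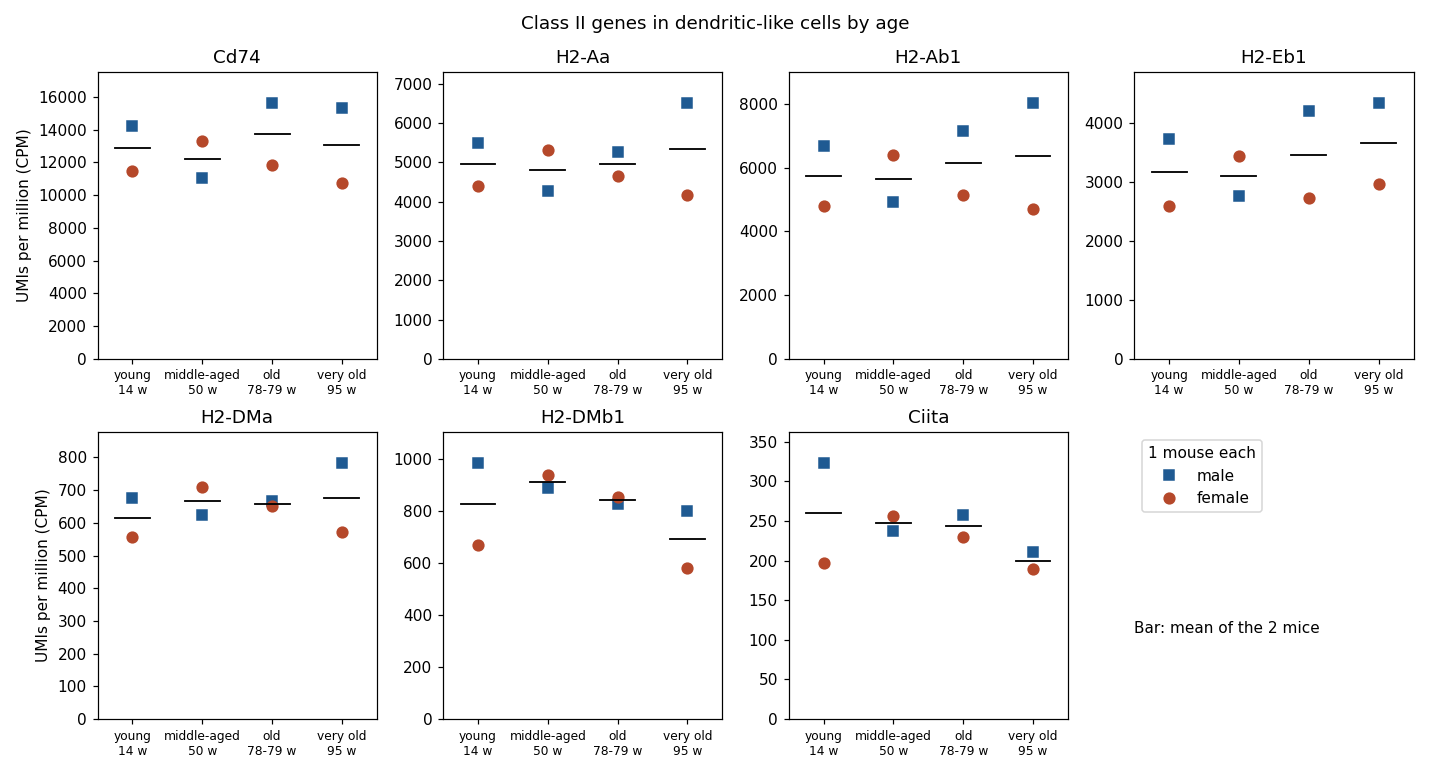
Class II genes in dendritic-like cells at the 4 ages. The y axis is CPM on a linear scale from 0, squares are males and circles females (1 mouse each), and bars are the mean of the 2 mice. Young and older mice overlap in all 7 genes, with Cd74 between 10766 and 15657 CPM.

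The difference between the age effects was tested in a fit of both classes together, with the mouse as a term. Relative to HSC-like cells, the age effect in dendritic-like cells was lower by 1.04 on the log2 scale for H2-Eb1 (log2 difference -1.04 ± 0.16, edgeR adjusted p = 1.62e-08), for H2-Aa (-0.99 ± 0.15, edgeR adjusted p = 5.11e-09) and for Cd74 (-0.77 ± 0.12, edgeR adjusted p = 7.69e-08). These are 3 of the 7, where 1.26% of 11161 genes were called. H2-Ab1 did not pass (-0.45 ± 0.14, edgeR adjusted p = 0.0795), nor did H2-DMa, H2-DMb1 or Ciita. In 6 of 15 alternatives of processing and samples H2-Ab1 did pass. This fit used 1 spread for all genes, so its p-values do not carry each gene's own spread. On the differences within mice, limma gave adjusted p of 0.00318 for H2-Aa, 0.0104 for H2-Eb1 and 0.0533 for Cd74, and without the Harmony correction none of the 7 was called.

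Some other lineages shared the rise of the chains. In MPP-like cells, where 0.690% of genes were called, 3 of the 7 rose: H2-Aa at 1.23 ± 0.20 (edgeR adjusted p = 0.0215), H2-Eb1 at 1.06 ± 0.17 (adjusted p = 0.0213) and H2-Ab1 at 0.62 ± 0.09 (adjusted p = 0.00908). H2-Aa was 17.3 and 5.87 CPM in the young, 21.9 and 12.0 in the middle-aged, 26.7 and 24.4 in the old and 34.2 and 16.2 in the very old mice, so the very old female fell below the young male. H2-Ab1 was 55.2 and 40.6 CPM in the young and 64.5 to 79.9 in the older mice, without overlap. Cd74 was 52.9 and 23.1 CPM in the young and 36.6 to 60.6 in the older mice and did not pass (0.45 ± 0.15, edgeR adjusted p = 0.320). By cluster, the same 3 were called in the largest one (0.348% of its genes called), H2-Aa alone in the shallow one (0.771%) and H2-Ab1 alone in the Dntt and Flt3 one (0.169%).

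In megakaryocyte-like cells, where 2.70% of genes were called, H2-Eb1 rose from 3.55 and 2.48 CPM in the young to 6.49 to 7.68 in the older mice (1.24 ± 0.25, edgeR adjusted p = 0.0136). H2-Aa rose from 4.91 and 4.22 to 6.81 to 9.83 (0.90 ± 0.20, edgeR adjusted p = 0.0240). These levels are low, with 307 and 401 UMIs in all 4313 cells, and Cd74 did not follow (-0.34 ± 0.29, edgeR adjusted p = 0.662). None of the 6 or 7 class II genes tested was called in basophil and mast cell-like (0.159% of genes called), monocyte-like (0.161%), erythroid-like (0%) or granulocyte-monocyte progenitor-like cells (0%) in older against young mice. In middle-aged against young monocyte-like cells, where 1.58% of genes were called, H2-Ab1 rose (0.49 ± 0.11, edgeR adjusted p = 0.0454). In basophil and mast cell-like cells Cd74 was 11.0 and 20.6 CPM in the young and 3.00 to 8.83 in the older mice, with a log2 fold change of -1.54 ± 0.31 that missed the threshold (edgeR adjusted p = 0.0658). Macrophage-like cells were not tested, since the old male had only 13. Their share was 1.09% of cells in the young and 0.266% in the older mice (exact two-sided permutation p = 0.0667, the smallest that 2 mice against 4 allow).

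**Figure D5:**
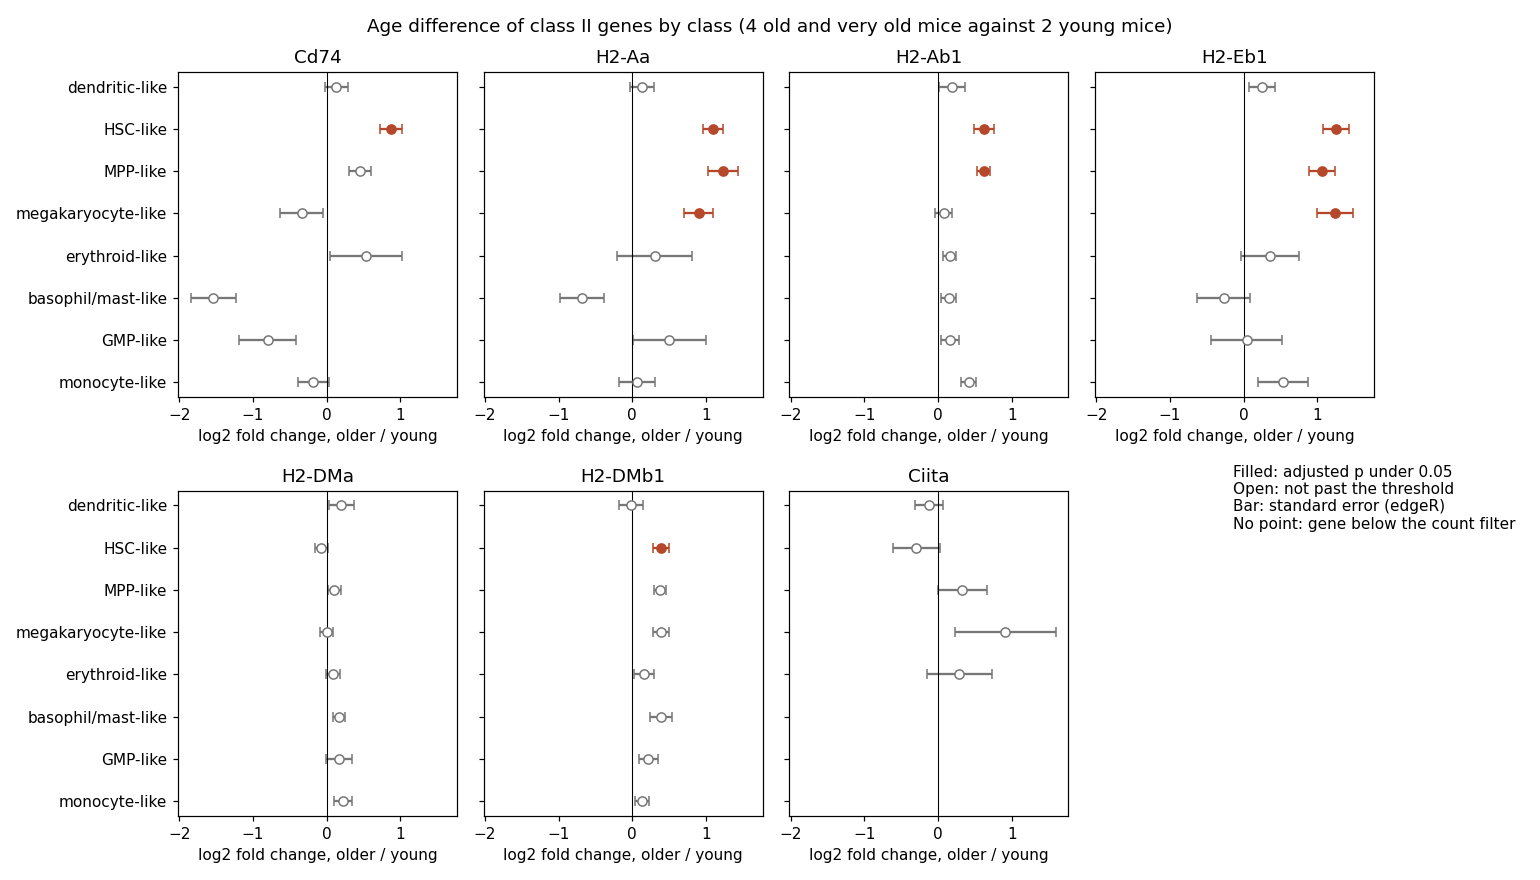
Log2 fold change of each class II gene, 4 old and very old mice over 2 young mice (x axis), in 8 classes of cells. Points are edgeR estimates, bars their standard error, and filled points have an adjusted p under 0.05; in HSC-like cells 5 genes are filled, in MPP-like cells 3, in megakaryocyte-like cells 2 and in dendritic-like cells none.

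The partners of the pathway were read from lists of related genes. In HSC-like cells the related class II chains held 2 tested genes of 5 listed, and H2-Ob, part of the H2-O dimer that restrains H2-DM, fell (-1.45 ± 0.36, edgeR adjusted p = 0.0271). Of 15 listed regulators, of class II transcription or of dendritic and B cell fate, 11 were tested. Id2, a regulator of dendritic cell fate, rose (1.68 ± 0.27, edgeR adjusted p = 0.00313), while Spi1 (-0.60, adjusted p = 0.0208) and Nfya, a subunit of NF-Y (-0.46, adjusted p = 0.0292), fell. Of 12 genes for the lysosomal proteases and related proteins, all tested, Ctsl (0.93, edgeR adjusted p = 0.00140) and Lamp2 (0.43, adjusted p = 0.0352) rose. Ctss, the protease that trims the invariant chain in antigen-presenting cells, fell (-1.05, edgeR adjusted p = 0.0281). Of 20 tested interferon-gamma response genes (21 listed) only Gbp4 passed (2.19 ± 0.57, edgeR adjusted p = 0.0342). None of 5 tested co-stimulation genes (10 listed) passed. These list counts stand beside the 9.72% of all genes called in HSC-like cells, and nothing particular to the lists is read from them. In dendritic-like cells none of the genes on the 5 lists was called.

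Over the 70 sums of class and mouse, genes were compared with the mean log2(CPM + 1) of Cd74, H2-Aa, H2-Ab1 and H2-Eb1. The most alike, members left out, were Tbc1d9 (Pearson's r = 0.976), Shtn1 (0.965), Samhd1 (0.964), Ckb (0.961) and Slamf8 (0.960), of 9468 genes compared. Tbc1d9 had medians of 40.6 CPM in dendritic-like, 27.6 in macrophage-like, 4.44 in HSC-like and 0.213 in monocyte-like cells. Sums of 1 mouse share a library, and Ckb was among the markers used to name the dendritic-like class.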

How the data were processed

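The submitters' processing notes name Cell Ranger and mm10. The authors deposited, for each library, a matrix of raw UMI counts (genes by cells), without normalization or cell type names. The versions given for Cell Ranger and for the capture kit differ between sources and are not stated here. Counting was at the 3′ end, so levels were not scaled by length.

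From these deposited counts, cells with 200 or more genes were kept. Values were scaled per cell and log-transformed, 30 principal components were aligned between libraries with a reimplemented Harmony (θ = 1), and clusters were found by Leiden (leidenalg 0.10.2, 20 neighbours, resolution 0.8, seed 1). A cluster took a class's name when at least 3 of that class's markers stood among its top 50 genes by fold, unless a different class led its top 10. Clusters of low depth for their library with no such marker in the top 10 stayed unnamed. Doublets were kept in the main setting. An alternative removed those called by Scrublet, or the top expected share where it called under 0.5%. Cells were thinned to 4000 UMIs for shares of positive cells.

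UMI counts were summed per mouse and class and tested with edgeR 4.0.16 in R 4.3.3 (TMM, filterByExpr, quasi-likelihood test, age group and sex, all 8 mice). The contrast was the mean of old and very old minus young, for 8 classes with 20 or more cells in each mouse. The scripts were tested on simulated data. DESeq2 1.42.0 and limma 3.58.1 were alternatives, as were other filters, normalizations and cell classes, and each mouse was left out in turn. A fit without 1 mouse holds a single mouse of that age, so its spread comes from the other ages. With 2 mice per age, adjusted p-values borrow spread across genes. The named genes were all 7 members, genes past the threshold on each related list (at most 4 per direction), and the 5 most alike by Pearson's r. Members and lists were chosen with earlier results of these data known. Intervals over mice hold biological and technical spread together, and single-cell shares are limited by a depth of 6949 to 10458 UMIs per HSC-like cell. Xist and its absence matched the labelled sex in all 8 libraries.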

Additional observations from a re-analysis of the deposited data

Results flagged for a closer look

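In the edgeR test of the difference itself, 3 members had an age effect that differed between dendritic-like and HSC-like cells. The log2 fold change of older against young mice in dendritic-like cells minus that in HSC-like cells was -0.99 for H2-Aa, -1.04 for H2-Eb1 and -0.77 for Cd74, with edgeR adjusted p of 5.11e-09, 1.62e-08 and 7.69e-08. In HSC-like cells the 4 older mice lay above the 2 young mice in each of the 3 genes, and in dendritic-like cells the groups overlapped. These p-values rest on 1 spread shared by all genes. By limma on differences within mice the adjusted p were 0.00318 for H2-Aa, 0.0104 for H2-Eb1 and 0.0533 for Cd74, so that Cd74 was not called, and without Harmony none of the 3 was called. The class sums of 1 mouse share a library, and all contrasts share the 2 young mice. No single mouse was tested for outlying values, since each age holds 2 mice.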

How the results depend on the processing

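The count of 5 class II genes called in HSC-like cells was 3 with no sex term, with age in weeks as a number, without the very old mice, with doublets removed and with marker gates in place of clusters, 2 without Harmony, and 2 to 5 when each mouse was left out in turn, lowest without the young female. Cd74 was called in 16 of 21 alternatives (log2 fold change 0.21 to 1.15), H2-Ab1 in 11 and H2-DMb1 in 7. In dendritic-like cells the count was 0 in all 19 alternatives. The count for the difference between classes was 0 without Harmony, 2 with limma on differences within mice, and 2 to 4 when each mouse was left out. The count of 3 members called in MPP-like cells, older against young, was 1 in cluster 4 alone and 1 in cluster 17 alone. The count of all genes called in HSC-like cells, 1135, was 554 with DESeq2, 574 with age as a number, 662 with no sex term, 698 with thinned cells, 722 without the very old mice, 1805 without the filter on low counts, 1880 with a stricter cell filter, 1882 with doublets removed and 134 to 1551 when each mouse was left out. With marker gates mean Cd74 in HSC-like cells moved from 219 to 111 CPM. The share with a Cd74 UMI moved from 37.3% to 26.2% at 2000 UMIs, 45.9% without thinning and 25.3% with marker gates. Signs that turned belonged to uncalled values. H2-DMa in HSC-like cells was 0.050 with marker gates. In dendritic-like cells H2-DMb1 was 0.10 without the very old mice, 0.0010 without Harmony, 0.0091 with doublets removed and -0.23 to 0.20 when each mouse was left out. H2-Aa there was -0.039 to 0.27 when each mouse was left out. Ciita there was 0.10 with the stricter cell filter, 0.30 with thinned cells and -0.44 to 0.19 when each mouse was left out, and its difference between classes was -0.17 to 0.41. The cause of these moves was not tested. Clusters were remade in the alternatives on Harmony, doublets and cells, so the HSC-like class then held other cells. Without Harmony this class held 198 and 189 cells of the young male and female, against 382 and 451 in the main setting. In the old male and female it held 901 and 494 cells, against 854 and 604. In the very old male and female it held 724 and 416, against 720 and 600. The dendritic marker gate found 9 cells and was not run. Mice were not paired across ages, since the labels number no replicates, and each age holds 1 male and 1 female, fitted as a sex term. The test of the difference between classes was within mice. Depth limits Ciita in HSC-like cells, with 169 UMIs.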

Other observations

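A cluster of 105 cells led by immunoglobulin, plasma and T cell genes (Igkc, Jchain, Ighm and Trbc1) stayed unnamed because its leading genes belong to several classes. It held 0.981% of all Cd74 UMIs in 0.178% of cells, and C1qa had 0.978 UMIs per 1000 of Cd74 there. The H2-O subunits, which restrain H2-DM in B cells and dendritic cells, were also read in both classes. H2-Oa had a mean of 80.9 ± 14.5 CPM (SD, n = 8) in dendritic-like and 20.4 ± 3.82 CPM in HSC-like cells, and H2-Ob had 66.7 ± 21.4 and 15.1 ± 9.80 CPM. H2-Eb2, a neighbouring beta chain gene, had 2 UMIs in the 520 dendritic-like cells and 5 in the 4636 HSC-like cells.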
